A study of Mus musculus with 18 samples.

Results

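The spindle assembly checkpoint and chromosomal passenger genes are represented here by 10 mouse genes chosen by symbol, out of 47069 gene identifiers in each deposited table. They are Bub1, Bub1b, Bub3, Ttk, Mad1l1 and Mad2l1 for the checkpoint, and Aurkb, Aurkc, Incenp and Birc5 for the passenger complex. All 10 are protein-coding genes in GENCODE vM21 on the GRCm38 build, whose coordinates are given below, and all 10 passed the filter on low counts that kept 12161 genes. The series profiled RNA of single oocytes from C57BL/6JAusb mice at metaphase II (MII, the mature egg stage) and at the germinal vesicle stage (GV, the immature stage with an intact nucleus). The aged NMN groups came from mice 12 months old whose drinking water held nicotinamide mononucleotide, a precursor of NAD, at 2 g/L for 4 weeks. The aged control groups came from mice of the same age on plain water, and the young control groups from mice 4 weeks old on plain water. After removal of a duplicated and a failed library, 16 oocytes remained: 3 each in MII aged NMN, MII aged control, MII young control and GV aged NMN, and 2 each in GV aged control and GV young control. No engineered allele is named for any group. Each library was made from the supernatant of an oocyte lysate after the nucleus had been spun down, so RNA that sank with the nucleus was not sampled.

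The spindle assembly checkpoint holds back chromosome separation until every kinetochore, the protein plate on a centromere, is attached to spindle microtubules. The kinase Ttk (also called Mps1) starts the signal at unattached kinetochores, Bub1 and Bub3 dock there, Mad1l1 brings Mad2l1, and Mad2l1, Bub1b and Bub3 together block Cdc20, the activator of the anaphase-promoting complex. The chromosomal passenger complex corrects faulty attachments: Incenp is its scaffold, Birc5 (survivin) and Cdca8 (borealin) place it on chromatin, and either Aurkb or Aurkc is its kinase. Aurkc is a germ-cell paralogue of Aurkb that serves the complex in mouse oocyte meiosis. A fully grown oocyte is nearly silent in transcription, and maturation runs on stored mRNA that is translated or degraded on schedule.

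The deposited libraries held between 2756181 and 5586894 counts, so that 3 counts, taken as the detection floor, corresponded to between 0.537 and 1.09 CPM (a count scaled to the library total) before scaling. MII aged NMN oocytes 1 and 2 stood apart: they had 6444 and 5679 genes with a count and 43.0 and 33.2% of their counts on mitochondrially encoded genes, against 7725 to 13816 genes in the other 14 oocytes, whose share on mitochondrially encoded genes was 2.76 to 24.4%. Markers of cumulus and granulosa cells, the somatic cells around an oocyte, were summed in scaled CPM. The sums lay between 0 and 347 in MII oocytes and between 9.61 and 95.1 in GV oocytes. Of these 16 markers, 13 had a count in MII oocytes and 8 in GV oocytes, and Amh and Foxl2 were at 0 in all oocytes. Of the 12 oocyte markers, 11 had a count in MII oocytes and all 12 in GV oocytes, and their summed level was at least 2133 scaled CPM in each oocyte. The labels name no animals, so oocytes of a group may come from a single animal and each group stands as 1 sample. The values below are descriptions, with no test, and an SD is the spread between oocytes. Levels are relative to the RNA counted in each library, and amounts per oocyte were not tested.

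Birc5 was the most abundant of the 10 mRNAs per unit of length, and Aurkb the least. Over the 16 oocytes, deposited TPM (a transcript abundance corrected for length) averaged 1361 ± 739 for Birc5, 458 ± 447 for Aurkc and 308 ± 234 for Mad2l1. Bub3 averaged 142 ± 107 TPM and Bub1b 85.4 ± 64.1 TPM. The remaining genes were far lower, with mean TPM of 19.8 ± 17.2 for Ttk, 14.7 ± 8.17 for Incenp, 14.1 ± 17.2 for Bub1, 5.07 ± 3.05 for Mad1l1 and 3.41 ± 5.48 for Aurkb. Neighbours in this order were not separated in every oocyte. Birc5 exceeded Aurkc in 14 of 16 oocytes, Aurkc exceeded Mad2l1 in 11, Mad2l1 exceeded Bub3 in 12 and Bub3 exceeded Bub1b in 10. Bub1b was above Ttk in 13 oocytes, while Ttk was above Incenp in 8 of 16, Incenp above Bub1 in 11, Bub1 above Mad1l1 in 11 and Mad1l1 above Aurkb in 13. Birc5 alone made up between 19.5 and 80.5% of the summed TPM of the 10 genes. That share averaged 54.4 ± 11.6% in MII aged NMN, 45.7 ± 12.9% in MII aged control and 36.7 ± 23.3% in MII young control oocytes (SD, n = 3 each). In GV oocytes it averaged 71.7 ± 7.93% in aged NMN (n = 3), 69.4 ± 15.8% in aged control (n = 2) and 72.4 ± 7.76% in young control oocytes (n = 2).

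**Figure D1:**
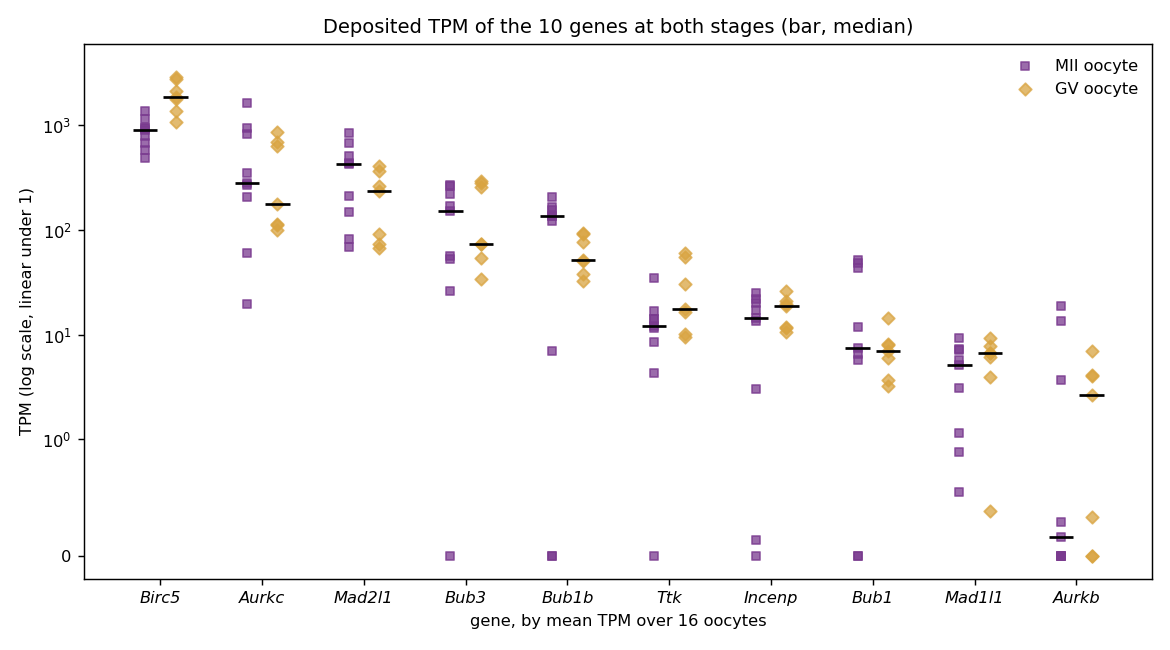
Deposited TPM (vertical axis, log scale that is linear under 1) of each gene in the 9 MII oocytes (squares) and 7 GV oocytes (diamonds), with genes ordered by their mean over 16 oocytes and a bar at the median of each stage. Birc5 lies between 1087 and 2870 TPM in GV oocytes, above its MII median of 900 TPM, and Aurkb is at 0 in several oocytes of both stages.

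Nearly all of the mRNA for the passenger kinase was Aurkc. Its share of the summed Aurkb and Aurkc TPM was between 93.5 and 100% in the 16 oocytes, with a median of 99.8%. By group the share averaged 99.98% in MII aged NMN, 99.5% in MII aged control, 97.8% in MII young control, 99.6% in GV aged NMN, 97.8% in GV aged control and 100% in GV young control oocytes. The lowest share belonged to MII young control oocyte 2-1, which had 18.7 TPM of Aurkb and 271 TPM of Aurkc. Aurkb had a count in 10 of 16 oocytes and Aurkc in all 16.

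The 2 paralogues are similar enough in sequence to ask whether reads could be told apart, so their most similar stretch is shown. The coding sequence is 945 bases long in Aurkc and 1035 bases in Aurkb, and 718 of 919 aligned bases are identical (78.1%), with a longest shared run of 25 bases. Within the most alike window of 90 coding bases, 13 bases differ, given in capitals. The Aurkc stretch covers coding bases 455 to 544 of transcript ENSMUST00000086248.6 and lies on the plus strand at chr7:6997636-7000051 (GRCm38), spanning an intron. The Aurkb stretch covers coding bases 536 to 625 of transcript ENSMUST00000021277.5, plus strand, chr11:69048628-69048803, also across an intron.
Aurkc: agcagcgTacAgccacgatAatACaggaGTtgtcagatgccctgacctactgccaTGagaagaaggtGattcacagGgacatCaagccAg
Aurkb: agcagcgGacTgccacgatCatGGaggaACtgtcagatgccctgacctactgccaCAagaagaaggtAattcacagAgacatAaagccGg
Both sequences are from the GENCODE vM21 transcripts. No stretch of 50 bases of Aurkb occurs in another annotated gene. Aurkc shares 677 such stretches with the predicted gene Gm12463, and its deposited count was fractional in 16 of 16 oocytes, while the sum of Aurkc and Gm12463 was whole in all 16 (within 0.005). Gm12463 held between 1.33 and 20.3% of that sum, so Aurkc values carry that uncertainty.

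Birc5, the survivin subunit (chr11:117849251-117855743, plus strand), was lower in MII than in GV oocytes in every condition. In MII oocytes it stood at 1345, 1195 and 485 scaled CPM (CPM after TMM scaling) in aged NMN, 647, 536 and 816 in aged control and 1454, 379 and 197 in young control oocytes. In GV oocytes it stood at 2473, 2120 and 1883 scaled CPM in aged NMN, 1542 and 1342 in aged control and 1067 and 1248 in young control oocytes. The MII and GV oocytes did not overlap in aged NMN or aged control groups, and only MII young control oocyte 1 kept the young groups from separating. The log2 ratio of mean scaled CPM (each mean plus 1 CPM), MII over GV, was -1.10 in aged NMN, -1.11 in aged control and -0.77 in young control oocytes. It was negative under every setting run, from -2.15 to -0.76 in aged NMN, -1.38 to -0.53 in aged control and -2.66 to -0.22 in young control oocytes. Without MII young control oocyte 1 the young value was -2.0, and within batch 1 it was -0.22. Pooled over oocytes and unscaled, Birc5 was at 789 CPM in MII aged NMN (exact 95% Poisson interval 773 to 806, counting error only). In GV aged NMN oocytes it was at 2121 CPM (2094 to 2148). This MII pool includes oocytes 1 and 2, with 43.0 and 33.2% of their counts on mitochondrially encoded genes. In scaled CPM the group means were 1008 in MII and 2158 in GV aged NMN oocytes. Among GV oocytes Birc5 in scaled CPM was also ordered by condition without overlap: the 3 aged NMN oocytes lay above both aged control oocytes (log2 ratio 0.58), and both aged control oocytes lay above both young control oocytes (0.32, above 0 under 16 of 17 settings). In TPM the aged NMN and aged control oocytes overlapped, with 1880 TPM in GV aged NMN oocyte 2-1 and 2119 TPM in GV aged control oocyte 1. The count of Birc5 was fractional in 8 of 16 oocytes, and its longer transcript shares stretches of 50 bases with 170 other genes.

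Incenp, the scaffold (chr19:9872296-9899551, minus strand), was detected in every GV oocyte, between 41.0 and 87.7 scaled CPM. It stood at 44.8, 63.8 and 87.7 scaled CPM in GV aged NMN, 81.7 and 66.8 in GV aged control and 48.9 and 41.0 in GV young control oocytes. Both GV aged control oocytes were above both young ones, with a log2 ratio of 0.71 that was positive under all 17 settings run, from 0.14 to 1.0. In MII oocytes Incenp stood at 0.79, 0 and 95.9 scaled CPM in aged NMN, 39.1, 37.3 and 81.0 in aged control and 13.8, 51.8 and 23.6 in young control oocytes. The MII aged NMN values run from none to the highest of all 16 oocytes, and the low ones are those of oocytes 1 and 2. The MII over GV log2 ratio was -1.0 in aged NMN, -0.49 in aged control and -0.58 in young control oocytes, with overlap in each, and the young value was 0.19 in TPM. The aged NMN value was -5.57 without MII aged NMN oocyte 2-1, 0.54 without oocytes 1 and 2, and 0.13 within batch 2.

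Aurkc, the germ-cell kinase (chr7:6995300-7003091, plus strand), was detected in every oocyte and varied widely within groups. In MII oocytes it stood at 27.6, 90.3 and 236 scaled CPM in aged NMN, 114, 540 and 755 in aged control and 377, 928 and 109 in young control oocytes. In GV oocytes it stood at 551, 526 and 178 scaled CPM in aged NMN, 633 and 82.3 in aged control and 113 and 89.5 in young control oocytes. The 3 aged GV oocytes of batch 1 lay between 526 and 633 scaled CPM and the other 4 GV oocytes between 82.3 and 178. The log2 ratio of GV aged control over GV young control oocytes was 1.81, and -0.29 without GV aged control oocyte 1. Those 3 oocytes also had summed immune-cell markers of 101 to 237 scaled CPM and 13253 to 13816 genes with a count, against 8.87 to 21.9 scaled CPM and 8825 to 11736 genes in the other 4 GV oocytes. Of the 9 immune markers 5 had a count in GV oocytes, with Ptprc, Adgre1, C1qa and Cd52 at 0 in all of them, and the part of these in the Aurkc and Bub3 values was not tested. In young controls Aurkc had a log2 ratio of 2.21 for MII over GV, with overlap, and 0.28 within batch 2. With Gm12463 counted in, that ratio was 2.1. In aged NMN oocytes the MII over GV ratio was -1.82, and 0.40 within batch 2.

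Aurkb, the kinase of somatic cells (chr11:69045647-69051664, plus strand), was scarce, with 0 to 2 counts in 9 of 16 oocytes. Its MII values were 0, 0 and 0.31 scaled CPM in aged NMN, 0.35, 18.5 and 0 in aged control and 0, 3.58 and 17.6 in young control oocytes. Its GV values were 5.26, 7.33 and 0.77 scaled CPM in aged NMN, 11.6 and 6.87 in aged control, and 0 in both young control oocytes. Both GV aged control oocytes thus had Aurkb counts and neither GV young control oocyte did. With the GV young control group set to 3 counts in total (0.389 scaled CPM), Aurkb was at least 23.7-fold higher in GV aged control oocytes. By the same floor it was at least 18.1-fold higher in MII young control than in GV young control oocytes, but MII young control oocyte 1 was at 0 as well, so the oocytes overlapped. That bound was 4.6-fold without MII young control oocyte 2-1 and 27.2-fold without oocyte 1. Oocyte 2-1 also had the highest cumulus and granulosa sum, 347 scaled CPM, whose part in this value was not tested. The MII aged NMN group held 1 Aurkb count in all (0.0896 CPM unscaled, exact 95% Poisson interval 0.00227 to 0.499) against 52 counts in GV aged NMN oocytes (4.69 CPM, 3.50 to 6.15).

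Ttk, the kinase that starts the checkpoint (chr9:83834689-83872389, plus strand), was lower in MII than in GV control oocytes of both ages. In MII oocytes it stood at 64.4, 93.1 and 0 scaled CPM in aged NMN, 27.5, 26.0 and 30.1 in aged control and 17.2, 28.9 and 52.7 in young control oocytes. In GV oocytes it stood at 33.4, 28.2 and 239 scaled CPM in aged NMN, 45.6 and 155 in aged control and 63.8 and 104 in young control oocytes. In scaled CPM the highest MII oocyte was below the lowest GV oocyte in both control conditions. In TPM the young groups overlapped. MII young control oocyte 2-1 was at 35.0 TPM, above the GV young control oocytes at 17.4 and 30.7 TPM. The MII over GV log2 ratio was -1.81 in aged control and -1.32 in young control oocytes. It was below 0 under all 17 settings run for each, from -2.44 to -0.69 in aged control and -1.82 to -0.42 in young control oocytes. In aged NMN oocytes the ratio was -0.92 with overlap, and it ran from -7.91 to 1.33 over the settings. Each highest GV value belonged to a batch 2 oocyte.

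Bub1 (chr2:127801122-127831865, minus strand), the kinase that docks at kinetochores, and Bub1b or BubR1 (chr2:118598211-118641591, plus strand), its relative in the Cdc20 inhibitor, had no count in MII aged NMN oocytes 1 and 2. Bub1 stood at 0, 0 and 30.3 scaled CPM in MII aged NMN, 93.4, 72.8 and 22.2 in MII aged control and 11.9, 62.9 and 15.5 in MII young control oocytes. Its GV values were 26.1, 26.6 and 17.7 scaled CPM in aged NMN, 18.2 and 49.6 in aged control and 9.52 and 24.8 in young control oocytes. Outside those 2 oocytes Bub1 was detected in all 14, between 9.52 and 93.4 scaled CPM. Bub1b stood at 0, 0 and 604 scaled CPM in MII aged NMN, 321, 468 and 642 in MII aged control and 36.4, 563 and 328 in MII young control oocytes. Its GV values were 140, 357 and 267 scaled CPM in aged NMN, 338 and 282 in aged control and 242 and 167 in young control oocytes. Both GV aged control oocytes exceeded both young ones for Bub1b, with a log2 ratio of 0.60 that stayed between 0.35 and 0.93 over the settings. For Bub1 the aged over young control ratio was 0.94 in GV and 1.04 in MII oocytes, with overlap at both stages. Aged over young control ratios of Bub1 and Bub1b were above 0 under all 17 settings at each stage.

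Bub3, the adaptor that carries Bub1 and Bub1b (chr7:131560222-131571895, plus strand), ran in opposite directions between stages in young and NMN-treated oocytes. In MII oocytes it stood at 0, 98.7 and 121 scaled CPM in aged NMN, 237, 342 and 139 in aged control and 746, 218 and 276 in young control oocytes. In GV oocytes it stood at 639, 596 and 198 scaled CPM in aged NMN, 488 and 105 in aged control and 86.5 and 170 in young control oocytes. All 3 MII young control oocytes were above both GV young control oocytes (log2 ratio 1.68), while all 3 MII aged NMN oocytes were below all 3 GV aged NMN oocytes (-2.69). The aged control stages overlapped (-0.31). Within batch 2 the ratios were 0.69 in young control and -0.71 in aged NMN oocytes, with 1 oocyte on each side. The MII aged NMN oocytes were also all below the MII aged control oocytes, at a log2 ratio of -1.69 that ran from -8.18 to -0.19 over the settings. As for Aurkc, the 3 aged GV oocytes of batch 1 were high (488 to 639 scaled CPM) and the other 4 GV oocytes low (86.5 to 198), and the GV aged over young control ratio of 1.2 was -0.29 without GV aged control oocyte 1. These are the oocytes with the higher immune-marker sums and gene counts given for Aurkc, whose part here was not tested either.

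Mad1l1, the kinetochore receptor of Mad2l1 (chr5:140008689-140321552, minus strand), was scarce in all groups. It stood at 3.16, 27.6 and 0.94 scaled CPM in MII aged NMN, 13.4, 6.25 and 16 in MII aged control and 2.93, 13.7 and 9.71 in MII young control oocytes. Its GV values were 23.3, 12.2 and 0.77 scaled CPM in aged NMN, 8.94 and 9.82 in aged control and 7.47 and 14.1 in young control oocytes. No comparison of Mad1l1 separated the oocytes, and its log2 ratios lay between -0.27 and 0.40. Over the settings run, its ratio of MII over GV in aged NMN oocytes ran from -2.76 to 3.11. For aged NMN over aged control in MII oocytes it ran from -3.13 to 0.60.

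Mad2l1, the inhibitor of Cdc20 (chr6:66535390-66547220, plus strand), reached its highest values in scaled CPM in the oocytes with the fewest detected genes. In MII oocytes it stood at 1300, 2762 and 132 scaled CPM in aged NMN, 252, 581 and 159 in aged control and 348, 807 and 450 in young control oocytes. In GV oocytes it stood at 516, 562 and 156 scaled CPM in aged NMN, 381 and 161 in aged control and 168 and 844 in young control oocytes. MII aged NMN oocytes 1 and 2 thus exceeded the other 14 oocytes, which ran from 132 to 844 scaled CPM. In TPM oocyte 1, at 426, was below MII young control oocytes 2 and 2-1 (672 and 515) and MII aged control oocyte 2 (438). In deposited TPM the group difference was smaller, 447 ± 390 TPM in MII aged NMN against 243 ± 181 TPM in MII aged control oocytes (SD, n = 3 each). The log2 ratio for these groups was 2.08 in scaled CPM, 0.88 in TPM and -1.32 without oocytes 1 and 2. The part of detection and mitochondrial content in these values was not tested.

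**Figure D2:**
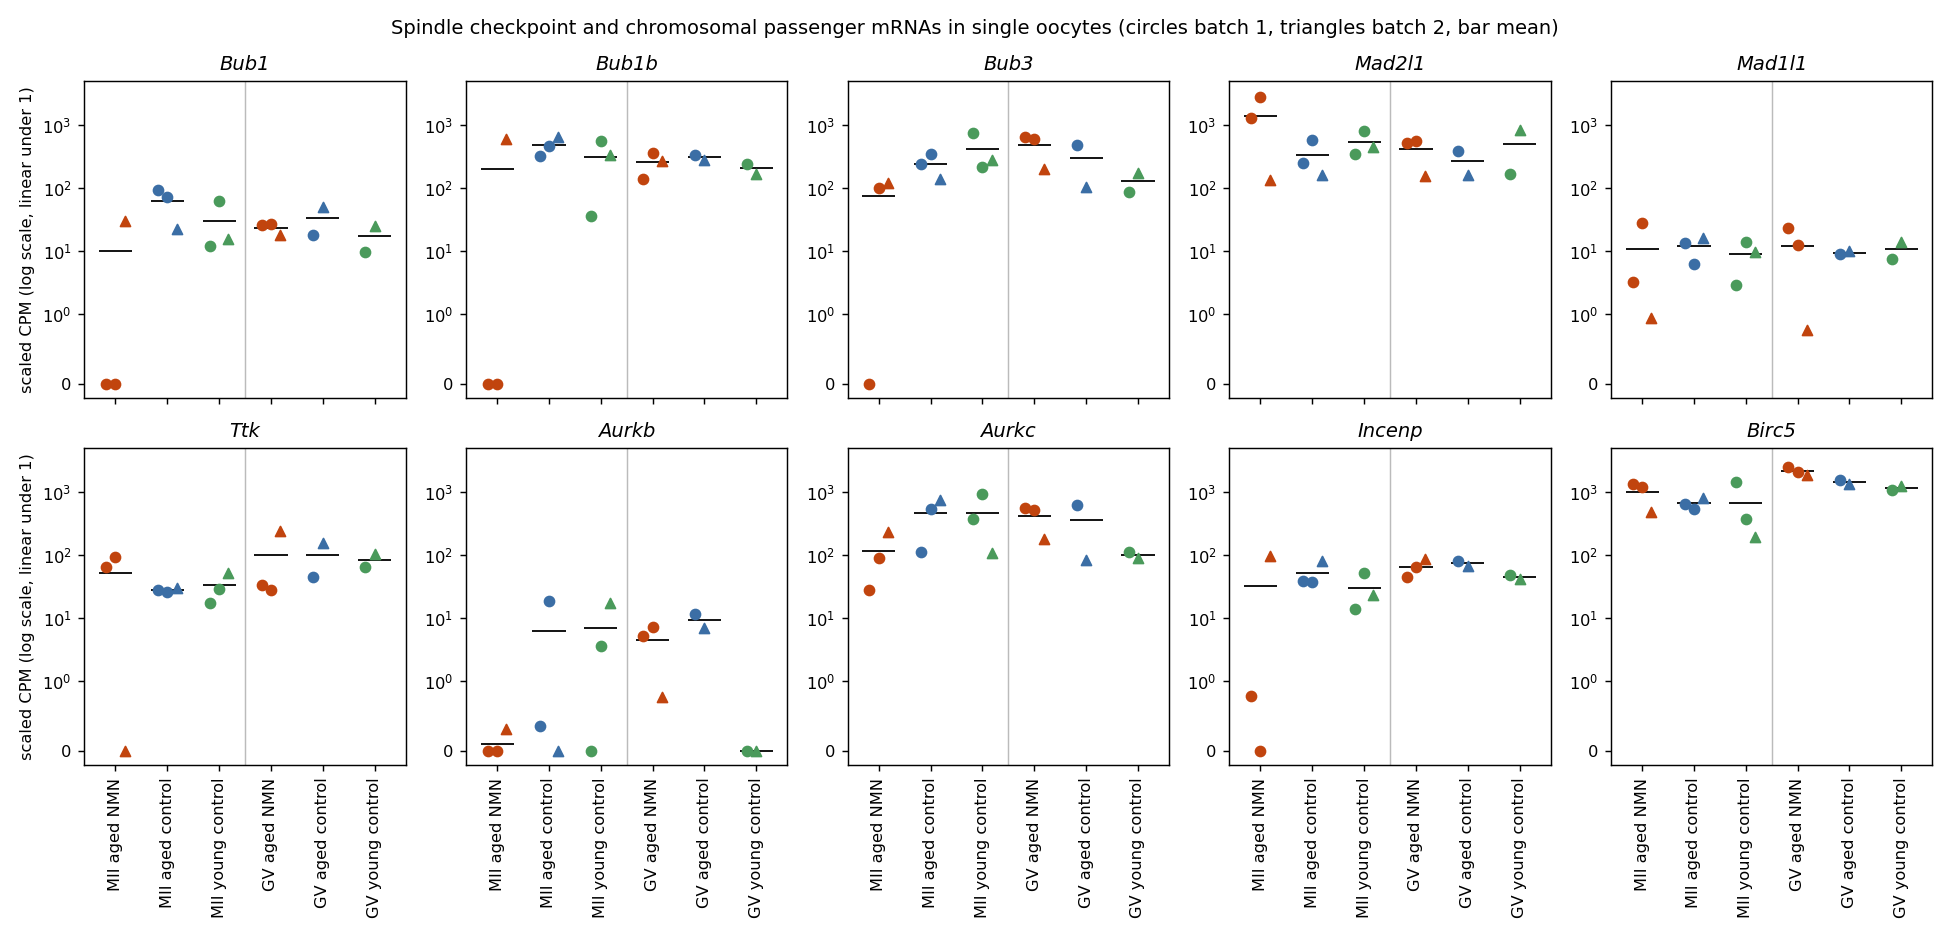
Scaled CPM (vertical axis, log scale that is linear under 1) of each gene in every oocyte of the 6 groups, with MII left of the grey line, circles for batch 1, triangles for batch 2 and a bar at the group mean. Birc5 is lower in MII than in GV oocytes of the aged groups, Bub1 and Bub1b are at 0 in MII aged NMN oocytes 1 and 2, and Aurkb is at 0 in both GV young control oocytes.

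**Figure D3:**
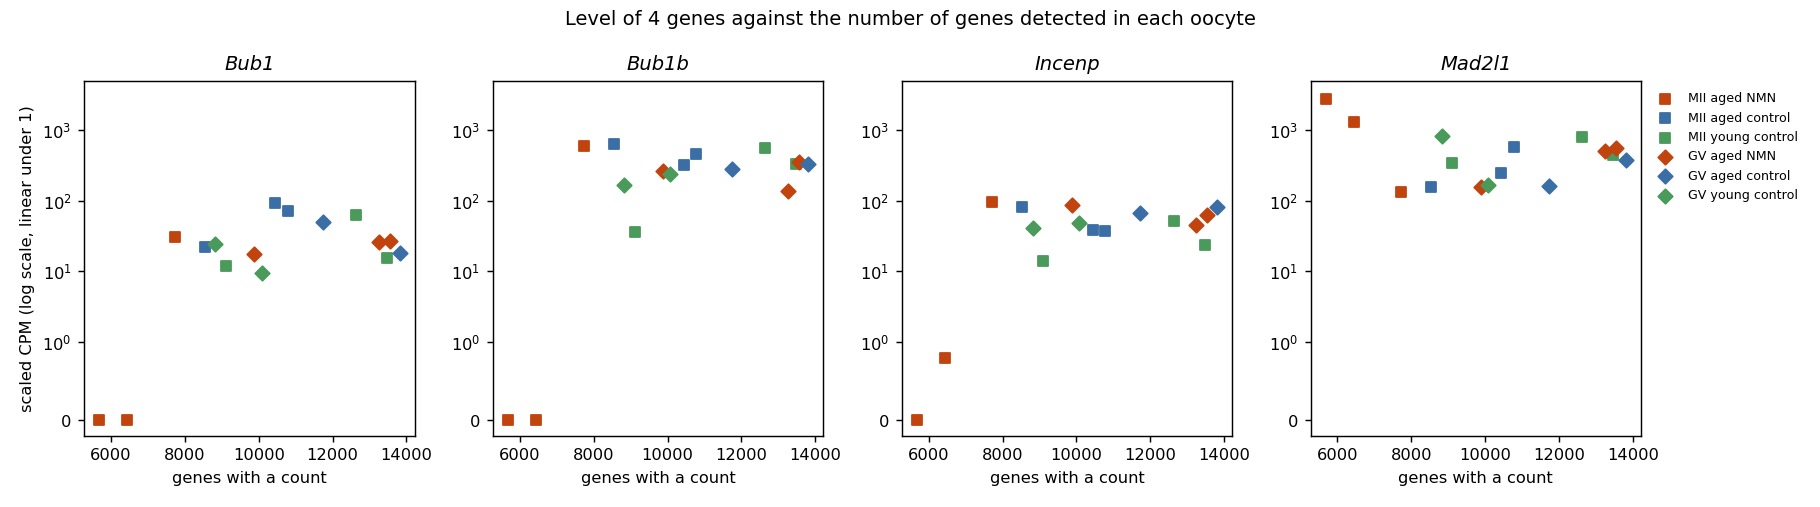
Scaled CPM (vertical axis, log scale that is linear under 1) of Bub1, Bub1b, Incenp and Mad2l1 against the number of genes with a count in each oocyte, with squares for MII and diamonds for GV. MII aged NMN oocytes 1 and 2, at 6444 and 5679 genes, hold the lowest values of the first 3 genes and the highest values of Mad2l1.

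The question of oocyte maturation is put by MII against GV oocytes of the same condition. Scaled CPM and TPM are relative values, so higher or lower in MII means a larger or smaller share of the RNA counted. Whether the amount of an mRNA per oocyte rose or fell was not tested. In aged NMN oocytes, 5 of the 10 genes were at least 2-fold lower in MII (Bub1, Bub3, Aurkb, Aurkc and Birc5), beside 46.7% of the 12161 genes kept. Incenp, 2.03-fold lower without the added 1 CPM, fell just short with it. With 0.5 CPM added 6 genes were lower, and with 5 CPM added 3 were. Only Mad2l1 was at least 2-fold higher, beside 16.9% of genes kept. In aged controls, Ttk and Birc5 were at least 2-fold lower (2 of 10, against 35.9% of genes kept) and none was 2-fold higher (16.9%). In young controls, Bub3, Aurkc and Aurkb were at least 2-fold higher (3 of 10, against 36.3%) and Ttk was 2-fold lower (1 of 10, against 25.8%). The median log2 ratio of the 10 genes was -1.05 in aged NMN, -0.01 in aged control and 0.34 in young control oocytes, beside medians of -0.82, -0.29 and 0.35 over all genes kept. Placing Aurkb at its bound leaves the young median as it is, since Aurkb has the highest ratio either way. Within batch 1 the medians of the 10 genes were -3.02 in aged NMN, -0.51 in aged control and 0.89 in young control oocytes, and within batch 2 they were -0.06, 0.13 and -0.57. In TPM the young median was 1.19. The counts moved with single oocytes: without GV aged control oocyte 1, 3 genes were at least 2-fold higher in MII aged controls. Without MII aged NMN oocyte 2 none was 2-fold higher in aged NMN oocytes. In young controls, 2 genes were 2-fold lower without MII young control oocyte 1 or 2, and without GV young control oocyte 2-2 the counts were 5 higher and 0 lower. Oocytes of the stages did not overlap for 3 genes that were lower in aged NMN MII oocytes (27.2% of genes kept, beside 3.68% that were higher, where no member was), for 2 lower in aged control (27.4%), and in young control for 1 higher (17.5%) and 1 lower (16.3%). These shares were near those of all genes kept. Among the 12 genes listed as Aurora and passenger partners is Cdk1, the kinase that drives the resumption of meiosis. Cdk1 averaged 2.71 scaled CPM in MII aged NMN and 211 in GV aged NMN oocytes, a log2 ratio of -5.84. The Cdk1 ratio was -4.41 in aged control and -2.78 in young control oocytes, without overlap in any condition. Cdca8, the partner of Birc5 in the complex, averaged 423 ± 265 scaled CPM in MII aged NMN, 363 ± 109 in MII aged control and 286 ± 139 in MII young control oocytes. In GV oocytes Cdca8 averaged 246 ± 62.0 scaled CPM in aged NMN, 176 ± 95.8 in aged control and 135 ± 53.3 in young control oocytes, so that its ratios of 0.78, 1.04 and 1.08 had the opposite sign to those of Birc5, with overlap in each.

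Among the 14 checkpoint partners, 13 passed the filter. In aged NMN oocytes 3 were at least 2-fold higher and 6 at least 2-fold lower in MII than in GV, beside 16.9 and 46.7% of genes kept. Zw10, a kinetochore protein that recruits Mad1l1, had no count in any MII aged NMN oocyte and averaged 21.2 scaled CPM in GV aged NMN oocytes, at least 63.2-fold lower in MII by a floor of 3 counts over the group. Its partner Zwilch averaged 1.04 scaled CPM in MII aged NMN and 14 in GV aged NMN oocytes (log2 ratio -2.87). In aged controls 3 were at least 2-fold higher and 2 lower, beside 16.9 and 35.9% of genes kept. The outer kinetochore scaffold Knl1, on which Bub1 and Bub3 dock, averaged 116 scaled CPM in MII and 43.0 in GV aged control oocytes (1.41), and the dynein adaptor Spdl1 182 and 76.2 (1.25), both without overlap. In young controls 5 were at least 2-fold higher and 2 lower, beside 36.3 and 25.8% of genes kept. Mad2l1bp, which helps to silence Mad2l1, led these at 42.6 scaled CPM in MII and 2.73 in GV oocytes (3.55). Zw10 also differed there, at 21.3 scaled CPM in MII and 3.22 in GV young control oocytes (2.40). Of the 12 Aurora and passenger partners, 3 were at least 2-fold higher and 4 lower in aged NMN, 2 higher and 1 lower in aged control, and 4 higher and 3 lower in young control oocytes. The shares of genes kept are those given beside the checkpoint partners. Examples without overlap were Aurka, the spindle-pole Aurora kinase, with a ratio of -2.38 in aged NMN oocytes, the centromere guardian Sgo1 at 1.39 in aged control and the kinase Plk1 at 1.93 in young control oocytes.

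**Figure D4:**
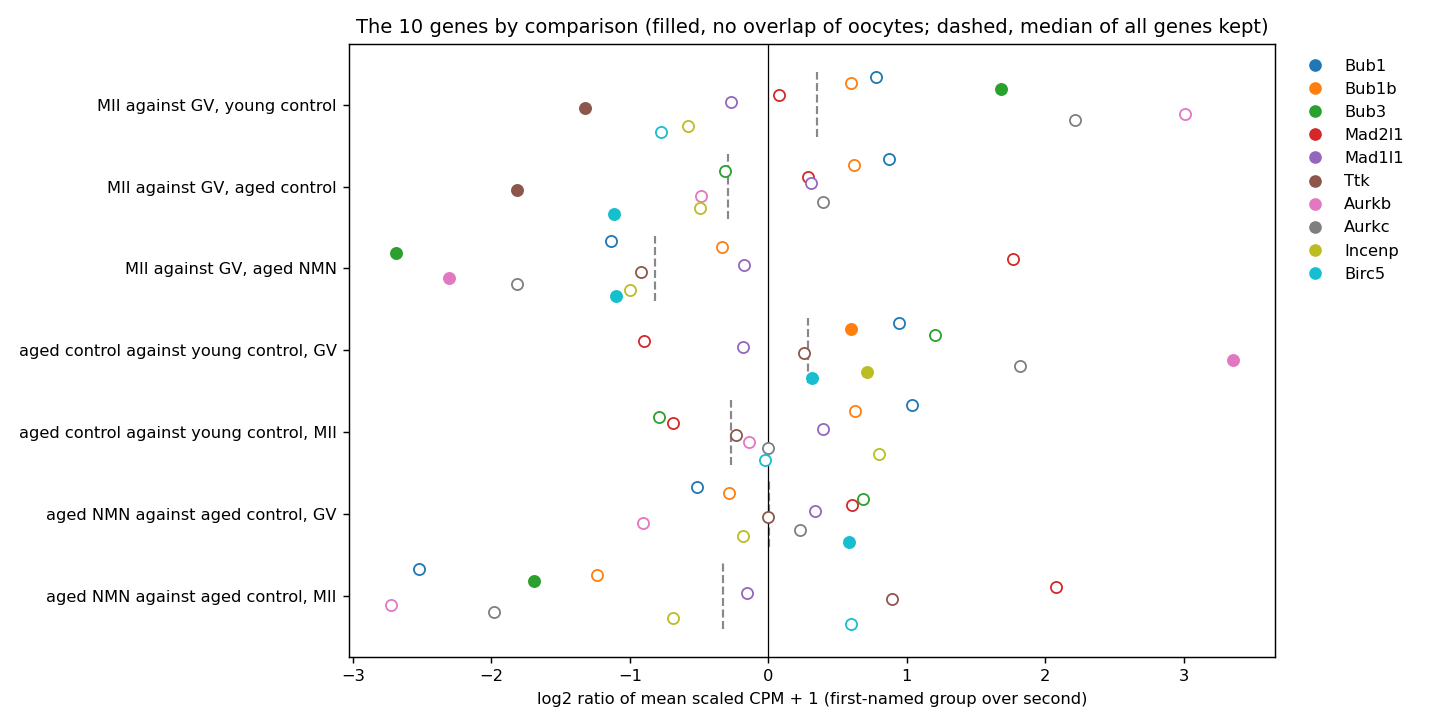
Log2 ratio of mean scaled CPM plus 1 (horizontal axis, first-named group over second) of each of the 10 genes in the 7 comparisons, filled where the oocytes of the groups did not overlap, with a dashed line at the median of all genes kept. Birc5 lies left of 0 in all 3 comparisons of MII with GV, Ttk does so as well, and the ratios of Aurkb against GV young control oocytes rest on the added 1 CPM because that group had no count.

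Age was compared in oocytes of untreated mice. In GV oocytes, Aurkb, Aurkc and Bub3 were at least 2-fold higher in aged than in young controls (3 of 10, beside 31.1% of genes kept) and none was 2-fold lower (12.2%). Aurkb, Birc5, Bub1b and Incenp were higher without overlap (4 of 10, beside 23.5%), each with 2 oocytes a group. The median of the 10 genes was 0.65 and that of all genes kept 0.29, while without GV aged control oocyte 1, 2 genes (Aurkb and Bub1) were at least 2-fold higher and 1 (Mad2l1) was lower, and Aurkc and Bub3 stood at -0.29 each. In MII oocytes, Bub1 alone was at least 2-fold higher in aged controls (1 of 10, beside 8.45%), none was 2-fold lower (22.6%) and none separated the oocytes (2.25% higher and 6.16% lower among genes kept). The medians were -0.01 for the 10 genes and -0.27 for all genes kept. Without MII aged control oocyte 2 no gene was 2-fold higher and 3 were 2-fold lower, and without MII young control oocyte 2 the counts were 3 higher and 1 lower. In MII aged controls 0 checkpoint partners were at least 2-fold higher and 3 lower, beside 8.45 and 22.6% of genes kept. In GV aged controls 3 were higher and 0 lower, beside 31.1 and 12.2%. Mad2l1bp averaged 23.2 scaled CPM in GV aged control and 2.73 in GV young control oocytes (log2 ratio 2.70), and Zw10 14.4 and 3.22 (1.86). The other, named after its values were seen to complete the count, was Trip13, a remodeller of Mad2l1, at 1.37 scaled CPM in GV aged control and 0 in GV young control oocytes, at least 3.52-fold higher by the same floor. The Aurora and passenger partners counted 2 higher and 2 lower in GV, and 0 higher and 1 lower in MII oocytes, beside the same shares at each stage. Plk1 averaged 69.2 scaled CPM in GV aged control and 24.2 in GV young control oocytes (1.48), and Bora, the activator of Aurka, 19.2 and 81.4 (-2.03).

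The effect of NMN was compared between treated and untreated aged mice. In GV oocytes none of the 10 genes was 2-fold higher or lower in the aged NMN group once 1 CPM was added to each mean, beside 8.54% of genes kept that were higher and 12.3% that were lower. Birc5 alone separated the oocytes, higher in aged NMN (1 of 10, beside 5.68%, with none lower beside 8.12%), and its log2 ratio was above 0 under all 17 settings, from 0.36 to 1.17. In TPM, GV aged NMN oocyte 2-1 was below GV aged control oocyte 1, so the groups overlapped for Birc5. Aurkb averaged 4.45 scaled CPM in GV aged NMN and 9.22 in GV aged control oocytes, 2.07-fold lower without the added CPM. The medians were 0.11 for the 10 genes and 0.01 for all genes kept. Leaving out GV aged control oocyte 1 gave 3 genes at least 2-fold higher and 1 lower. In MII oocytes, Bub1, Bub1b, Bub3, Aurkb and Aurkc were at least 2-fold lower in the aged NMN group (5 of 10, beside 33.1%) and Mad2l1 was higher (1 of 10, beside 14.7%). Bub3 was lower without overlap (1 of 10, beside 11.8%) and no gene was higher without overlap (1.51%). The medians were -0.96 for the 10 genes and -0.33 for all genes kept. Without MII aged control oocyte 2 the Aurkb ratio was -0.09 and 4 genes were lower, and 4 were also lower without MII aged NMN oocyte 1 or MII aged control oocyte 2-1. Without MII aged NMN oocyte 2-1, 2 genes were 2-fold higher and 6 lower. Within batch 2, which holds 1 MII oocyte of each group and neither of oocytes 1 and 2, the median was -0.23, against -2.49 within batch 1. Of the checkpoint partners 1 was at least 2-fold higher and 1 lower in GV, and 1 higher and 5 lower in MII aged NMN oocytes. The shares of genes kept were 8.54 and 12.3% in GV, and 14.7 and 33.1% in MII oocytes. Kntc1, which works with Zw10 and Zwilch, averaged 3.44 scaled CPM in GV aged NMN and 25.8 in GV aged control oocytes (-2.59). Zw10 (0.53) and Spdl1 (0.39) were above the GV aged control oocytes without overlap. In MII oocytes Nuf2, a microtubule-binding subunit of the Ndc80 complex, averaged 210 scaled CPM in aged NMN and 67.3 in aged control (1.63), while Spdl1 averaged 49.3 and 182 (-1.86) and the nuclear pore protein Tpr, which binds Mad1l1, 152 and 349 (-1.19). Of the Aurora and passenger partners 0 were higher and 1 lower in GV, and 2 higher and 2 lower in MII aged NMN oocytes, beside the same shares. Plk1 was among those lower in MII, at 25.3 scaled CPM in aged NMN and 88.0 in aged control (-1.76).

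Translation of stored oocyte mRNAs is known to depend on the cytoplasmic polyadenylation element near the 3′ end, together with the polyadenylation hexamer. The last 100 bases of each gene's principal transcript were searched on the transcript strand for the element (TTTTAT or TTTTAAT) and the hexamer (AATAAA or ATTAAA). The element was found in 3 of the 10 genes, beside 16.4% of 21682 protein-coding genes and 19.5% of the 10729 that passed the filter, and the hexamer in 9 of 10 beside 73.7 and 80.3%. Those 3 are shown, with both motifs in capitals. Bub1b (ENSMUST00000038341.7) is at chr2:118641556-118641585, Aurkb (ENSMUST00000021277.5) at chr11:69051619-69051648 and Aurkc (ENSMUST00000086248.6) at chr7:7003045-7003074, all on the plus strand of GRCm38 in the 3′ untranslated region and read from GENCODE vM21 transcripts.
Bub1b: cactgtgtaTTTTATAATAAAatagttttt
Aurkb: agaacaacaTTTTATAATAAAgtcttaaat
Aurkc: ctcTTTTATgaagtgatgttaATTAAAact
The start of the element lies 6 bases before that of the hexamer in Bub1b and Aurkb and 18 bases before it in Aurkc. A match describes these letters only.

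Across the 16 oocytes, the genes whose scaled CPM followed each checkpoint or passenger gene most closely were named by Spearman rho over 10502 candidate genes, as a description of oocytes that share batch and depth. For Bub1 these were Lpin2 (0.89) and Smc1a (0.84), for Bub1b Nol4l (0.92) and Edc4 (0.91), and Fbxw28 (0.91) was among those for Bub3. Mad2l1 was followed by Timm21 (0.90) and Syf2 (0.86), Mad1l1 by Zfp931 (0.79) and Haspin (0.77), and Ttk by Gmfb (0.88) and Copz2 (0.87). Haspin is the kinase whose histone mark recruits the passenger complex. BC067074 (0.92) was among the closest for Aurkb. For Aurkc the closest were H1foo (0.93), the oocyte linker histone, and Cyb5b (0.91), for Incenp Mcm8 (0.91) and Tcstv3 (0.87), and for Birc5 Cox7a2l (0.93) and Psmd4 (0.92). Between pairs of the 10 genes rho ran from -0.70 for Mad2l1 with Incenp to 0.63 for Bub1b with Incenp (n = 16).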

How the data were processed

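RNA was measured in 18 single-oocyte libraries of 6 groups. The submitters' processing notes list Cufflinks, TopHat2 2.1.1, Trim Galore 0.4.5 and FastQC 0.11.8, and the genome builds GRCm38 and mm10. The step that made the gene tables is not given in the sources used here. The values used were the deposited expected count of each gene, which per the file headers is not normalised, and the authors' TPM, which corrects for effective length. The deposited FPKM column was not used. Strand use in counting is not stated. Bub3 overlaps Fgfr2 on the other strand, and Mad1l1 and Incenp overlap unnamed or antisense gene models.

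Symbols and transcripts came from GENCODE vM21. GV young control oocytes 1 and 2-1 had identical tables and were counted once. GV aged control 2-2, with 5009 counts in 272 genes, was left out (minimum 100000 counts). Total counts were between 2756181 and 5586894. Batch was read from the titles, and MII aged NMN 2, whose title is ambiguous, was placed in batch 1. Fractional counts made up 19.5 to 29.0% of detected genes in batch 1, against 11.9 to 14.6% in batch 2, and the duplicated library had 14.5%.

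Expected counts were rounded and filtered by filterByExpr of edgeR 4.0.16 (minimum count 10, by group), which kept 12161 genes. CPM were computed with TMM scaling (R 4.3.3). Each comparison was described by the log2 ratio of mean CPM after adding 1 CPM, by overlap of oocytes and by counts past 2-fold, with no test, since the labels name no animals. Exact 95% Poisson intervals cover counting error only. The ratio was checked on simulated counts with known changes, which held counting error but no spread between oocytes. That check covers the computation of the ratio only. Alternatives were DESeq2 1.42.0 size factors, library totals, TPM, other added values, no filter, batches, and oocytes left out. Partners were named where the oocytes did not overlap and the higher group reached 10 CPM, up to 4 per comparison in order of log2 ratio. Cdca8 was named beyond that rule, after its values were seen, as the remaining subunit of the complex. The members and lists were chosen with earlier results of these data known. For each member the 2 genes with the closest Spearman rho were taken, and 2 of these genes are not reported here.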

Additional observations from a re-analysis of the deposited data

Results flagged for a closer look

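Bub3 differed between stages in opposite directions in the young control and aged NMN conditions. The log2 ratio of MII over GV oocytes was -2.69 in aged NMN oocytes, where all 3 MII oocytes (0, 98.7 and 121 scaled CPM) lay below all 3 GV oocytes (639, 596 and 198 scaled CPM). In young control oocytes the log2 ratio of MII over GV was 1.68, where all 3 MII oocytes (746, 218 and 276 scaled CPM) lay above both GV oocytes (86.5 and 170 scaled CPM). The difference between the 2 conditions was not tested. Without MII aged NMN oocytes 1 and 2 the aged NMN ratio was -1.97. Within batch 2, with 1 oocyte on each side, the ratio was -0.71 in aged NMN and 0.69 in young control oocytes.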

How the results depend on the processing

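Results were recomputed under other scalings, added values, filters, batches and with each oocyte left out. Of the member ratios so obtained, 1105 moved by less than the spread between oocytes and 65 moved by more. Another 17, all of genes at least 2-fold apart in the comparison as first computed, changed sign. No paired analysis was possible because the results come from no test and the labels name no animals behind the replicate numbers. Median ratios of the 10 genes moved by less than the spread of the oocytes under all settings run. That spread rests on 2 or 3 oocytes a group, so this does not show that the medians were stable. With an oocyte left out, medians of MII over GV ran from -2.63 to -0.84 in aged NMN, -0.53 to 0.29 in aged control and -0.32 to 0.96 in young control oocytes. Under the other settings they ran from -3.55 to -0.06, -0.51 to 0.55 and -0.57 to 1.19 in the same order.

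As a share of scaled CPM in place of TPM, Aurkc made up 99.1% of Aurkb plus Aurkc in GV aged NMN and 95.2% in GV aged control oocytes. The sign changes below are those of genes at least 2-fold apart in the comparison named. Birc5 in aged over young control GV oocytes, under 2-fold but without overlap, was below 0 under 1 of 17 settings (-0.27). For MII over GV in aged NMN oocytes, the sign turned within batch 2 for Bub1 (0.74), Mad2l1 (-0.24) and Aurkc (0.40), and without MII aged NMN oocytes 1 and 2 for Bub1 (0.36) and Mad2l1 (-1.63). Among genes under 2-fold there, Bub1b (1.17), Incenp (0.13) and Mad1l1 (0.13) were also above 0 within batch 2. The Mad1l1 value rests on 3 counts in the MII and 2 in the GV oocyte. The setting without oocytes 1 and 2 was chosen after seeing the data, as was the sum of Aurkc and Gm12463. For aged over young control GV oocytes, it turned within batch 2 for Bub3 (-0.69, or -0.29 with the duplicated library in batch 2) and Aurkc (-0.12 or -0.29). With an oocyte left out, Bub3 ran from -0.29 to 1.92 and Aurkc from -0.29 to 2.64 there, negative without GV aged control 1. For aged NMN over aged control MII oocytes, the sign turned within batch 2 for Bub1 (0.43), Mad2l1 (-0.27) and Aurkb (0.39, or 0.21 with MII aged NMN 2 in batch 2). That Aurkb value rests on 1 count in MII aged NMN oocyte 2-1 and 0 in MII aged control oocyte 2-1, under the floor of 3 counts. Without oocytes 1 and 2 it turned for Bub1b (0.34) and Mad2l1 (-1.32). The causes were not tested. Birc5 had the opposite sign in TPM (-0.36) to that in scaled CPM (0.60) for the same groups. With 2 or 3 oocytes a group, a gene at 0 in an oocyte had no count in that library, and absence of its mRNA was not tested.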

Other observations

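The number of the 10 genes with a count was 6 in each of MII aged NMN oocytes 1 and 2, 9 in MII aged NMN oocyte 2-1 and 9 or 10 in each of the other 13 oocytes. The oocytes with 9 lacked Ttk in the case of MII aged NMN oocyte 2-1, and Aurkb in each of the others.

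The 12 oocyte markers showed summed levels of 2133 to 5741 scaled CPM in MII aged NMN, 4464 to 12636 in MII aged control and 7662 to 25837 in MII young control oocytes. The 10 markers of dividing somatic cells summed to 267 to 823 scaled CPM in MII and 769 to 961 in GV oocytes.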
